A study of Homo sapiens with 12 samples.

Results

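The transcripts of 10 human tubulin isotypes, 4 alpha (TUBA1A, TUBA1B, TUBA1C and TUBA4A) and 6 beta (TUBB, TUBB2A, TUBB2B, TUBB3, TUBB4B and TUBB6), were measured by RNA-seq in prostate cancer cells with altered GALNT7, an enzyme that starts mucin-type O-glycan chains. The members were taken by name, as alpha and beta tubulin genes with an Ensembl identifier in the tables of both cell lines, and make up 10 of 59424 genes listed. CWR22Rv1 cells, a human prostate cancer line, were infected with lentivirus for short hairpin RNA, which was either a control hairpin (shControl) or targeted GALNT7 (GALNT7 KD). DU145 cells, also a human prostate cancer line, carried either a Lenti-ORF control (OE control) or a lentiviral GALNT7 reading frame (GALNT7 OE). Each of these 4 groups had 3 biological replicates, 12 libraries in all. The lines were stably modified, and nothing read here says how many clones each holds, so p-values measure the spread between these cultures. No time point or further treatment is given in the labels.

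Microtubules are hollow polymers of alpha- and beta-tubulin heterodimers, which carry intracellular traffic and form the mitotic spindle. Cells make several isotypes of each subunit from separate genes, and the isotypes differ mainly in a short acidic tail at the carboxyl end, where most tubulin-modifying enzymes act. Newly made tubulin is folded by prefoldin, the chaperonin CCT and the tubulin cofactors before it can polymerise. Tubulin mRNA is also autoregulated: when free heterodimers accumulate, the factor TTC5 reads the first residues of the emerging tubulin chain and the mRNA is degraded.

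The coding ends of TUBA4A and the 6 beta members are shown because they encode the tail and because near-identical stretches limit how reads can be divided between genes. The last 60 coding bases of 1 transcript per gene (GENCODE release 29, GRCh38) are given 5′ to 3′, with the stop codon in capitals.
TUBA4A: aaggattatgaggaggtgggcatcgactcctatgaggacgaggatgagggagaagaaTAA
TUBB: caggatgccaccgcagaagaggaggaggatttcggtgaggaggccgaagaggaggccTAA
TUBB2A: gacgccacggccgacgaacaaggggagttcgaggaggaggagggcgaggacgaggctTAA
TUBB2B: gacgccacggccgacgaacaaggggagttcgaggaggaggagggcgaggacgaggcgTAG
TUBB3: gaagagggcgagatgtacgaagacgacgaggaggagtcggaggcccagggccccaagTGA
TUBB4B: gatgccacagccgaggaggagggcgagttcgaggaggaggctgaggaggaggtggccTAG
TUBB6: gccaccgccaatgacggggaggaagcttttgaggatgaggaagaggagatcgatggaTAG

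Over these 60 bases TUBB2A and TUBB2B were 96.7% identical. TUBB3, the isotype known from neurons, shared 36.7% of aligned positions with TUBB6 and 43.3% with TUBB. Across the whole coding sequence the 6 alpha pairs ranged from 84.4% to 97.2% identity and the 15 beta pairs from 80.9% to 98.1%. An alpha and a beta member shared 52.2% to 53.9%.

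The opening 12 coding bases, which encode the peptide read during autoregulation, are shown with the start codon in capitals. They fell into 6 distinct sequences, of which the alpha ones differ from the beta ones in the last codon.
TUBA1A, TUBA1B and TUBA1C: ATGcgtgagtgc
TUBA4A: ATGcgtgaatgc
TUBB and TUBB4B: ATGagggaaatc
TUBB3 and TUBB6: ATGagggagatc
TUBB2A: ATGcgcgagatc
TUBB2B: ATGcgtgagatc

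Because the deposited counts come from Salmon, which divides reads between similar transcripts, each member transcript was cut into windows of 31 bases and searched in all 206694 annotated transcripts. TUBA1B had the fewest windows of its own among the alpha members, with 27.8% found in no other gene, followed by TUBA1A with 48.4% and TUBA1C with 64.9%. TUBA1A and TUBA1B had 799 windows in common. TUBB2A and TUBB2B had 997 in common, which left TUBB2A with 30.0% of windows of its own and TUBB2B with 46.4%. TUBB3 kept only 9.37%, because AC092143.1, an annotated transcript that runs through TUBB3 on the same strand, contains 1556 of its windows. That overlapping gene held 7.73 to 38.4 normalised counts in CWR22Rv1 and 54.5 to 177 in DU145, against at least 750 for TUBB3. TUBA4A, TUBB4B and TUBB6 were well separated, with 88.1%, 80.3% and 93.9% of windows of their own. TUBB had 68.4% of its own and 715 windows in common with TUBBP1, another annotated gene. Copies of TUBB on alternative haplotypes, treated below, did not count as another gene. The windows of TUBB therefore do not show how far its reads were divided between those copies. Values of TUBA1A, TUBA1B, TUBA1C, TUBB2A and TUBB2B are therefore uncertain to the extent that reads were divided between near-identical copies. The same holds for TUBB3 with AC092143.1 and for TUBB with TUBBP1.

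**Figure D1:**
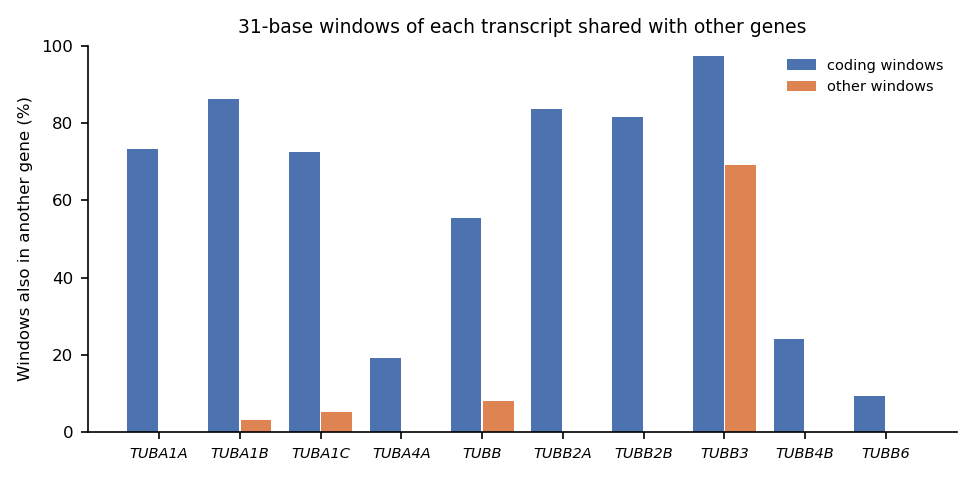
Share of 31-base windows of each member's transcript (y axis, percent) that also occur in a transcript of another gene, for coding windows (blue) and all other windows (orange). In TUBA1A, 73.3% of coding windows but 0.179% of the other windows were shared, while TUBB3 was shared throughout because a readthrough transcript contains it. Alternative-haplotype copies of TUBB did not count as another gene, so the TUBB bars leave them out.

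Normalised counts are reads per gene divided by the authors' size factor for the library. The libraries held 18364512 to 22264533 reads on genes in CWR22Rv1 and 21628718 to 24356910 in DU145. The 2 tables were scaled separately, so levels were compared only within a cell line. GALNT7 itself read 862, 1042 and 1093 normalised counts in shControl and 481, 501 and 400 in GALNT7 KD, a log2 fold change of -1.11 ± 0.13 (SE, n = 3 per group, limma, adjusted p = 0.0051). It read 1051, 928 and 913 in OE control and 1988, 2221 and 2334 in GALNT7 OE, a log2 fold change of 1.18 ± 0.09 (SE, n = 3 per group, limma, adjusted p = 8e-05). Epithelial markers (EPCAM, KRT8, KRT18 and CDH1) were measured in both lines. All 4 passed the filter on low values in each.

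TUBB needs a separate remark. Its identifier on the reference chromosome 6 (GRCh38, 30720201 to 30725426, forward strand) has no row in the tables used, and the levels and tests per gene below are those of ENSG00000227739, an identifier of an alternative-haplotype copy that the study's own gene table pairs with the symbol TUBB. A further identifier so paired, ENSG00000183311, is given beside it, and the per-kb levels, shares and sums over the beta members use both identifiers added together. Of 32 annotated TUBB transcripts, 28 lie outside the primary assembly, so reads may rest on copies whose identifiers are not paired with a name, and the TUBB level and share are lower bounds.

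In control cells the measured makeup of the 10 members differed between the lines. On a scale of normalised counts per kb of exon, TUBA1B, the general alpha isotype, made up 89.0% ± 0.101 (SD, n = 3) of the 4 alpha members in shControl CWR22Rv1 and 69.5% ± 0.269 in OE control DU145. TUBA1C made up 10.3% ± 0.134 and 24.1% ± 0.331. TUBA1A and TUBA4A were minor alpha members in CWR22Rv1, at 0.50% and 0.180%, and reached 3.55% and 2.89% in DU145. Shares within a library do not depend on how the tables were scaled, but cell line and lentiviral construct cannot be told apart here.

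Among the 6 beta members, TUBB4B held 56.3% ± 0.334 (SD, n = 3) in shControl CWR22Rv1 and TUBB at least 38.3% ± 0.291. The order of this pair in CWR22Rv1 is not settled, since TUBB is a lower bound and without length correction TUBB held 47.8% and TUBB4B 44.2%. In OE control DU145 TUBB held at least 63.7% ± 0.276 and TUBB4B 25.5% ± 0.426. TUBB6 followed in both lines, with 3.72% ± 0.151 and 6.55% ± 0.361. TUBB3 made up 1.29% ± 0.0895 in CWR22Rv1 and 2.79% ± 0.0411 in DU145. TUBB2A (0.326% and 1.35%) and TUBB2B (0.0257% and 0.0998%) came last. Within each control group the per-kb ranges of neighbouring beta isotypes did not overlap. The shares of TUBB4B, TUBB6, TUBB3, TUBB2A and TUBB2B are upper bounds to the extent that TUBB reads lie on unpaired identifiers. The further TUBB identifier averaged 268 normalised counts beside 17628 for the main one in shControl. In OE control these were 6987 and 15539. The part of unpaired copies in the difference between the lines was not tested.

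**Figure D2:**
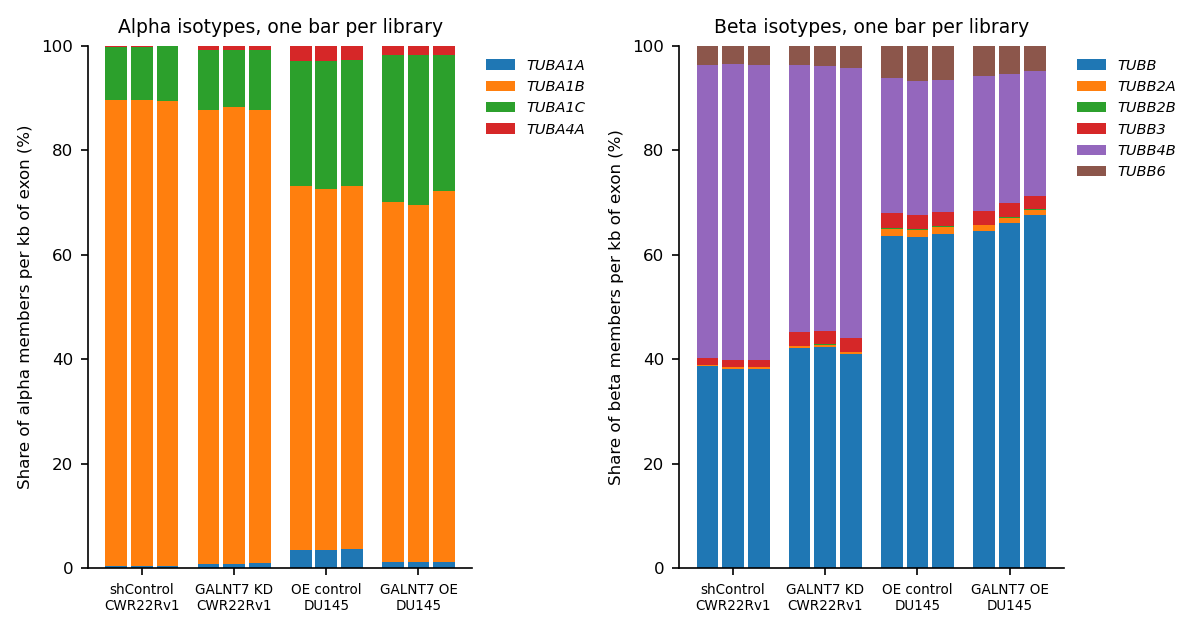
Share of each isotype within the 4 alpha members (left) and the 6 beta members (right), in percent of normalised counts per kb of exon, with 1 stacked bar for each of the 12 libraries. TUBA1B fills 89.0% of the alpha bar in shControl and 69.5% in OE control, and TUBB, a lower bound that adds both identifiers, fills 38.3% and 63.7% of the beta bar.

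In CWR22Rv1 cells with GALNT7 knockdown, individual isotypes differed from control in different directions. TUBA4A, TUBB3 and TUBA1A rose, and TUBA1B and TUBA1C fell, so that 5 of 10 members passed the test, against 9.06% of the 17906 genes tested. The 3 members that rose stand beside 5.28% of all genes that rose, and the 2 that fell beside 3.79%. TUBA1B and TUBA1C lie on chromosome 12, however, where 202 of 922 tested genes fell. With values centred on chromosome medians, 3 members rose and 1 fell. Control and knockdown libraries did not overlap for 7 of the 10 members, against 32.5% of all genes. The median log2 fold change was 0.06 over the members and -0.01 over all genes tested.

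TUBA4A, a widely expressed alpha isotype abundant in platelets and muscle (chromosome 2, 219249711 to 219278170, reverse strand), read 165, 153 and 105 normalised counts in shControl and 474, 489 and 476 in GALNT7 KD. The groups were far apart, and the control replicate at 105 was the lowest of all 6. The fold was 3.40 and the log2 fold change 1.78 ± 0.18 (SE, n = 3 per group, limma, adjusted p = 0.0031). It stayed past the threshold under all 18 alternatives run.

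TUBB3, beta-III tubulin, is a neuronal isotype that also occurs in epithelial tumours (chromosome 16, 89921392 to 89938761, forward strand). It read 750, 786 and 856 normalised counts in shControl and 1582, 1429 and 1640 in GALNT7 KD. Every knockdown library lay above every control library, with a fold of 1.94 and a log2 fold change of 0.96 ± 0.08 (SE, n = 3 per group, limma, adjusted p = 0.0022). Its share of the beta members went from 1.29% to 2.62% ± 0.0432 (SD, n = 3), and from 2.56% to 5.09% with the longest transcript as length. The neural and neuroendocrine marker list did not rise with it: 0 of the 3 genes tested of 8 passed by limma, 2 had an unadjusted p under 0.05, edgeR called 0 and DESeq2 called 1, and their median log2 fold change was -0.69. The summed level of that list was 630 to 917 in shControl and 419 to 571 in GALNT7 KD. Most of this sum was ENO2, at 670 ± 141 and 412 ± 78.3 (SD, n = 3, limma adjusted p = 0.0806), so it largely follows 1 gene.

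TUBA1A, the alpha isotype of developing neurons (chromosome 12, 49184796 to 49189324, reverse strand), read 340, 308 and 341 normalised counts in shControl and 457, 455 and 469 in GALNT7 KD. The groups did not overlap, at a log2 fold change of 0.48 ± 0.09 (SE, n = 3 per group, limma, adjusted p = 0.0198). This call was thin: without any 1 of shControl replicates 1, 2 or 3 or GALNT7 KD replicates 1 or 2 the adjusted p was 0.0654, 0.0615, 0.0595, 0.0749 and 0.0507 by limma, with 0.436 to 0.509 as log2 fold change.

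TUBA1B (chromosome 12, 49127782 to 49131397, reverse strand) read 61150, 61597 and 60968 normalised counts in shControl and 46219, 47020 and 44916 in GALNT7 KD. The knockdown libraries were all below the controls, with a log2 fold change of -0.41 ± 0.02 (SE, n = 3 per group, limma, adjusted p = 0.00055). Quantile normalisation ended this call, with a limma adjusted p of 0.071.

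TUBA1C (chromosome 12, 49188736 to 49274603, forward strand) read 9067, 9231 and 9295 normalised counts in shControl and 7983, 7650 and 7695 in GALNT7 KD. It too fell in every replicate, by a log2 fold change of -0.24 ± 0.04 (SE, n = 3 per group, limma, adjusted p = 0.0113). Without shControl replicate 3 the adjusted p was 0.0517, and without a mean-variance trend it was 0.095, both by limma. With values centred on chromosome medians the direction turned, to 0.03 (limma adjusted p = 0.689).

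The abundant beta isotypes did not pass the test in knockdown. TUBB4B (chromosome 9, 137241213 to 137243707, forward strand) read 16603, 16396 and 16598 normalised counts in shControl and 14427, 13161 and 15673 in GALNT7 KD, with a log2 fold change of -0.20, a 95% interval of -0.35 to -0.05 and a limma adjusted p of 0.095. Its groups did not overlap, and the knockdown replicates were more spread than the controls; without GALNT7 KD replicate 3 it passed (limma adjusted p = 0.033), as it did in DESeq2 (adjusted p = 0.0354). TUBB read 17954, 17454 and 17475 in shControl and 18859, 17403 and 19763 in GALNT7 KD, with overlapping groups and an interval of -0.04 to 0.20 on the log2 scale (limma adjusted p = 0.35). Its further identifier was erratic, at 276, 92.8 and 435 in shControl and 110, 117 and 0 in GALNT7 KD, and did not pass (limma adjusted p = 0.313).

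TUBB6 (chromosome 18, 12307669 to 12344320, forward strand) overlapped between groups, at 2203, 2000 and 2186 normalised counts in shControl and 2052, 1999 and 2511 in GALNT7 KD, with an interval of -0.20 to 0.27 on the log2 scale. TUBB2A (chromosome 6, 3153669 to 3157526, reverse strand) read 79.3, 80.5 and 75.1 in shControl and 89.9, 92.8 and 110 in GALNT7 KD. Its groups did not overlap, but the adjusted p was 0.237 by limma and the interval ran from -0.04 to 0.65. TUBB2B (chromosome 6, 3224261 to 3231730, reverse strand) held at most 11.5 normalised counts in any CWR22Rv1 library, and its 95% interval ran from -1.36 to 1.25 on the log2 scale (limma adjusted p = 0.966).

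Summed per kb of exon, the alpha members went from 19251 ± 90.5 to 14817 ± 299 (SD, n = 3), a ratio of 0.770, and the beta members from 13905 ± 177 to 13354 ± 1019, a ratio of 0.960. The ratio of summed alpha to summed beta level went from 1.38 ± 0.0241 to 1.11 ± 0.107, without overlap between the groups. These sums are descriptions and were given no test. To the extent that TUBB reads lie on unpaired identifiers, the beta sums are lower bounds and the ratios of alpha to beta upper bounds.

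GALNT7 overexpression was accompanied by higher levels of most of the 10 members in DU145. TUBA1B, TUBA1C, TUBA4A, TUBB, TUBB2A, TUBB3, TUBB4B and TUBB6 rose, TUBA1A fell, and TUBB2B did not pass. The 9 members called of 10 stand beside 43.5% of the 18705 genes tested, the 8 that rose beside 22.9%, and the 1 that fell beside 20.5%. With libraries rescaled to their 75th percentile, which moved the median of all genes from -0.01 to -0.11 on the log2 scale, the same 8-to-1 split of the members was found while 3380 genes rose and 4736 fell in place of 4290 and 3842. Groups did not overlap for 9 of the members, against 55.3% of all genes, and the median log2 fold change was 0.72 over the members and -0.01 over all genes.

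TUBA1C read 5732, 5924 and 5657 normalised counts in OE control and 15360, 15139 and 15664 in GALNT7 OE. The replicates were tight in both groups, with a fold of 2.67 and a log2 fold change of 1.41 ± 0.03 (SE, n = 3 per group, limma, adjusted p = 1.6e-06). TUBA1B read 12978, 12951 and 12599 in OE control and 29130, 27930 and 32874 in GALNT7 OE, a fold of 2.33 with the third overexpressing library highest (log2 fold change 1.22 ± 0.06, SE, n = 3 per group, limma, adjusted p = 1.5e-05). TUBA4A read 641, 626 and 563 in OE control and 875, 848 and 911 in GALNT7 OE. Its rise was smaller, at a log2 fold change of 0.53 ± 0.08 (SE, n = 3 per group, limma, adjusted p = 0.0017).

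TUBA1A moved against the other 3 alpha members. It read 624, 621 and 640 normalised counts in OE control and 482, 465 and 495 in GALNT7 OE, so that all overexpressing libraries lay below all controls. The log2 fold change was -0.39 ± 0.07 (SE, n = 3 per group, limma, adjusted p = 0.0040), and it passed under all 18 alternatives. Its level relative to TUBA1B therefore moved in opposite directions in the cell lines: the log2 ratio of TUBA1A to TUBA1B went up by 0.90 in knockdown, from -7.54 ± 0.0907 to -6.64 ± 0.0559 (SD, n = 3), and decreased by 1.61 in overexpression, from -4.35 ± 0.0467 to -5.96 ± 0.081. How far reads of TUBA1B reach the TUBA1A value was not tested.

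Of the 6 beta isotypes, 5 rose. TUBB read 15824, 15758 and 15034 normalised counts in OE control and 30020, 29809 and 30540 in GALNT7 OE, a fold of 1.94 (log2 fold change 0.96 ± 0.03, SE, n = 3 per group, limma, adjusted p = 3.6e-06). Its further identifier, at 6875, 7016 and 7071 in OE control and 13333, 13090 and 14226 in GALNT7 OE, gave a log2 fold change of 0.95 ± 0.04 (SE). Both copies moved by nearly the same fold, but Salmon divides reads between similar transcripts, so they are not independent measurements.

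TUBB4B read 5834, 5755 and 5458 normalised counts in OE control and 10876, 10083 and 9994 in GALNT7 OE, a fold of 1.82 (log2 fold change 0.86 ± 0.05, SE, n = 3 per group, limma adjusted p = 2.6e-05). TUBB3 read 1338, 1310 and 1262 in OE control and 2441, 2278 and 2207 in GALNT7 OE, a fold of 1.77 (log2 fold change 0.82 ± 0.06, SE, n = 3 per group, limma adjusted p = 7.6e-05). In both, each overexpressing library exceeded each control. TUBB6, at 2691, 3005 and 2831 in OE control and 4828, 4356 and 3900 in GALNT7 OE, rose 1.53-fold with a wider spread (log2 fold change 0.61 ± 0.09, SE, n = 3 per group, limma adjusted p = 0.0013).

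TUBB2A read 262, 238 and 237 normalised counts in OE control and 406, 359 and 345 in GALNT7 OE, a fold of 1.51 (log2 fold change 0.59 ± 0.10, SE, n = 3 per group, limma adjusted p = 0.0035). Its near-identical neighbour TUBB2B stayed low, at 14.3, 31.7 and 23.2 in OE control and 34.1, 34.2 and 24.1 in GALNT7 OE. The TUBB2B groups overlapped, and its interval ran from -0.34 to 1.25 on the log2 scale (limma adjusted p = 0.319).

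**Figure D3:**
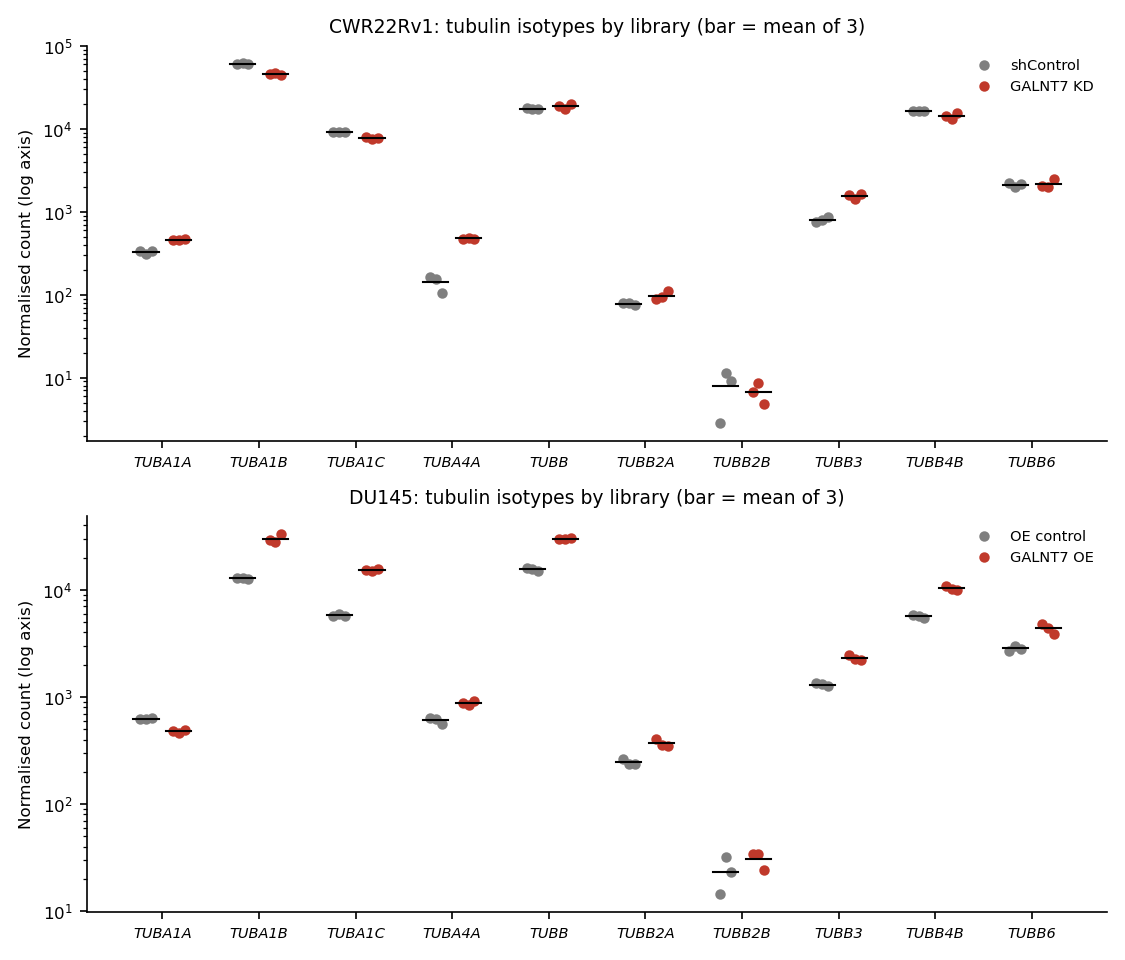
Normalised counts (log axis) of the 10 tubulin isotypes in every library, with control libraries in grey, GALNT7 KD or GALNT7 OE libraries in red, and a bar at the mean of 3. In CWR22Rv1 (top) TUBA4A and TUBB3 stand above their controls and TUBA1B below, while in DU145 (bottom) all members except TUBA1A and TUBB2B stand clear above their controls.

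**Figure D4:**
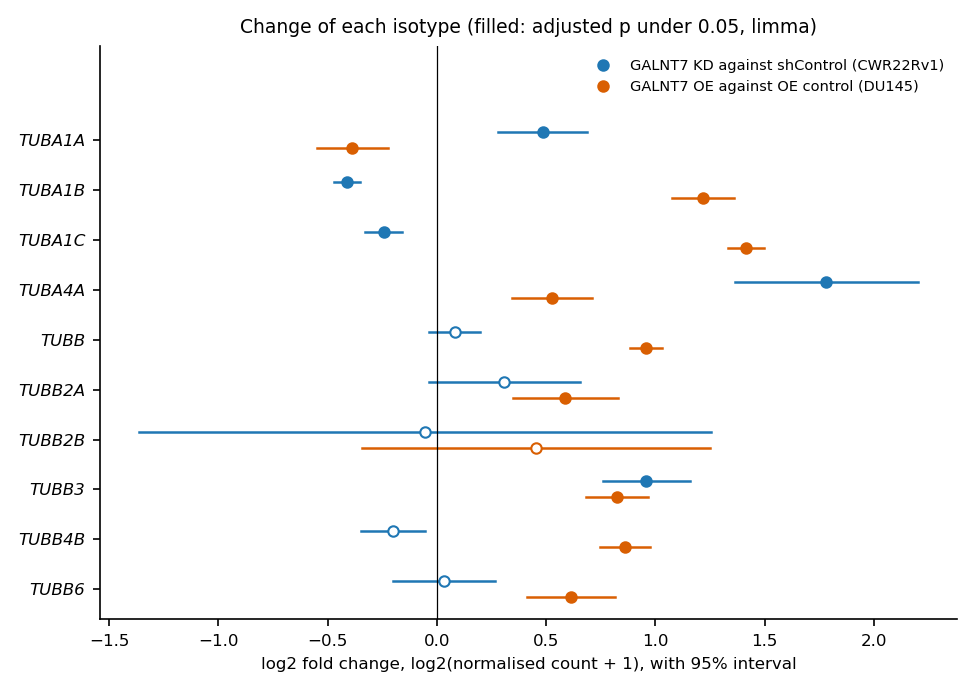
Log2 fold change of each isotype on the log2(normalised count + 1) scale, with its 95% interval, in GALNT7 KD against shControl (blue) and GALNT7 OE against OE control (orange), filled where the limma adjusted p is under 0.05. TUBA1A, TUBA1B and TUBA1C lie on opposite sides of 0 in the 2 comparisons, and TUBA4A and TUBB3 lie above 0 in both.

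Summed per kb of exon, the alpha members went from 5173 ± 88.5 to 12066 ± 789 (SD, n = 3) with GALNT7 OE, a ratio of 2.33, and the beta members from 10535 ± 217 to 19698 ± 345, a ratio of 1.87. The ratio of summed alpha to summed beta level went from 0.491 ± 0.00179 to 0.613 ± 0.0382. Here too the beta sums are lower bounds and the ratios upper bounds, because of TUBB. Within the alpha members TUBA1B kept nearly the same share (69.5% ± 0.269 and 69.5% ± 1.40), TUBA1C went from 24.1% to 27.6% ± 1.30, and TUBA1A from 3.55% to 1.17% ± 0.0421. Per kb of exon, TUBA1A and TUBA4A changed places. TUBA1A was at 181 to 187 and TUBA4A at 138 to 157 in OE control, but at 136 to 145 and 208 to 223 in GALNT7 OE. Without length correction they held 3.17% and 3.07% in OE control, with overlapping counts, so their order there depends on the length used. Among beta members TUBB3 held 2.79% and 2.65%.

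The comparisons come from different cell lines with their own controls, so they were set side by side. Of the 10 members 5 were called in both (50%), against 5.48% of the 16124 genes tested in both. Of these 5, TUBA1B and TUBA1C fell in knockdown and rose in overexpression, TUBA1A rose and fell, and TUBA4A and TUBB3 rose in both. Among the 884 genes called in both comparisons, 464 moved in opposite directions (52.5%) and 278 rose in both (31.4%). The 3 of 5 members that moved oppositely are thus near the share of all such genes.

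TUBA1A, TUBA1B and TUBA1C lie side by side on chromosome 12, with TUBA1A and the start of TUBA1C overlapping on opposite strands, which a stranded library can tell apart. In GALNT7 KD the whole chromosome was low: the median log2 fold change of its 922 tested genes was -0.28, with 202 lower and 19 higher. The 48 other tested genes within 1 Mb of the cluster had a median of -0.23, and 12 of them fell. Over all genes tested in knockdown, 3.79% fell and 5.28% rose. TUBA1C differed from the chromosome median by 0.03 on the log2 scale, TUBA1B by -0.13 and TUBA1A by 0.76. With each library's values centred on chromosome medians, TUBA1B kept -0.14 and passed, while TUBA1C did not pass.

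In GALNT7 OE chromosome 12 had a median log2 fold change of 0.07 over 940 genes. The 51 other genes near the cluster had a median of 0.02, with 10 higher and 9 lower. Over all genes tested in overexpression, 22.9% rose and 20.5% fell. TUBA1B stood above the chromosome median by 1.15, TUBA1C by 1.35, and TUBA1A differed from it by -0.45. The part of the chromosome-wide shift in the knockdown values was not tested further.

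**Figure D5:**
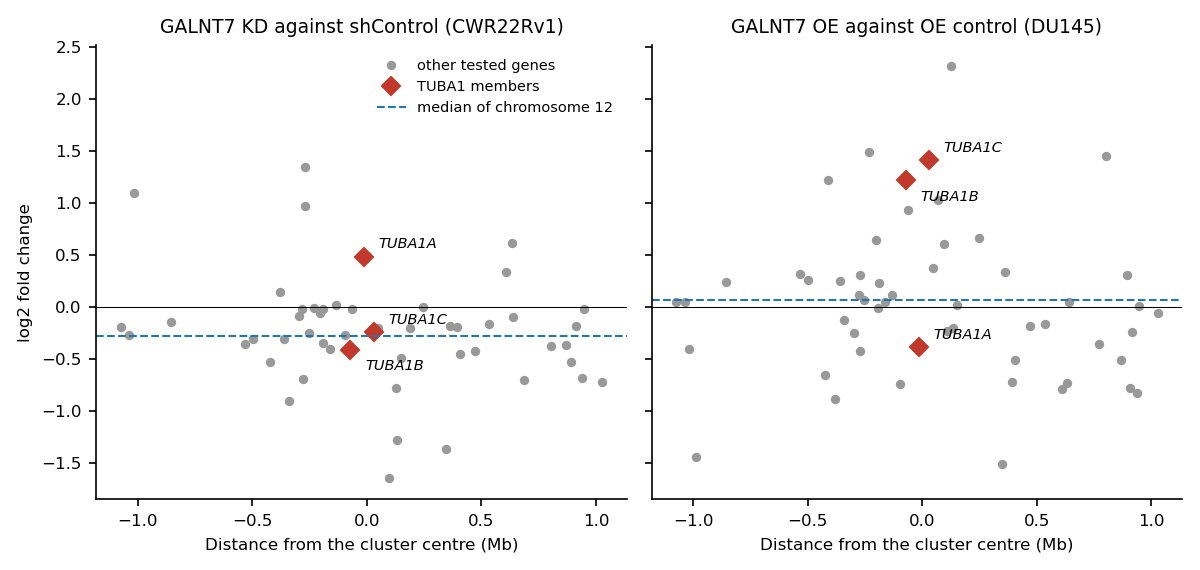
Log2 fold change of each tested gene within 1 Mb of the TUBA1 cluster (y axis) against its distance from the cluster centre in Mb (x axis), with the 3 TUBA1 members as red diamonds and the chromosome 12 median as a dashed line. In knockdown TUBA1B and TUBA1C lie near the median of -0.28 and TUBA1A at 0.48, and in overexpression TUBA1B and TUBA1C lie at 1.22 and 1.41, above the median of 0.07.

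The promoters of the 3 neighbours are shown because these genes lie in 1 cluster and TUBA1A moved against both neighbours in each comparison. Each window covers 250 bases before to 50 bases after an annotated start (RefSeq, GRCh38.p14), written 5′ to 3′ along the gene, with CCAAT on either strand in capitals. TUBA1B is at chr12:49131346-49131645 (reverse strand), TUBA1A at chr12:49189031-49189330 (reverse strand), and TUBA1C, of which the downstream of 3 annotated starts is shown, at chr12:49264832-49265131 (forward strand).
TUBA1B: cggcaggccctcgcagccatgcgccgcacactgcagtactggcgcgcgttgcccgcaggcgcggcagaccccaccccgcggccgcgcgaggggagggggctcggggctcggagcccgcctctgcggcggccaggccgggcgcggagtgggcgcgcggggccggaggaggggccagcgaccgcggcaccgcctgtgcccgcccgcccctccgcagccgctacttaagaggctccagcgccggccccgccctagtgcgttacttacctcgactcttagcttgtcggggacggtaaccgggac
TUBA1A: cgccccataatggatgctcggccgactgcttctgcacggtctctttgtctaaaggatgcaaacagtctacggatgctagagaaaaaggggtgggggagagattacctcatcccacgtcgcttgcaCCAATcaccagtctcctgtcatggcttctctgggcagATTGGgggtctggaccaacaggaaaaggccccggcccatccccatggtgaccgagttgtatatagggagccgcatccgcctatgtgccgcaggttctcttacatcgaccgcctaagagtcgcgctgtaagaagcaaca
TUBA1C: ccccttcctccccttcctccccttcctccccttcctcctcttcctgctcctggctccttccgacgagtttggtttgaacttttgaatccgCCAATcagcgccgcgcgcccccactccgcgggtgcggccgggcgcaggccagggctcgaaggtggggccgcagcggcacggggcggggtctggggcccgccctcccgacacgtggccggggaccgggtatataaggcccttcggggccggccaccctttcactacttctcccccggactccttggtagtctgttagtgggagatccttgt

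CCAAT, searched on both strands, occurred in 9 of the 15 promoter windows of the 10 members, some of which overlap, and in 34.6% of 35116 windows of the same length. The TUBA1A window held 2 copies, the TUBA1C window 1 and the TUBA1B window 0. TTTGAA, the core of the cell cycle homology region element, was found on either strand in 4 windows, of TUBA1C and TUBB4B, and in 15.2% of all windows. TATAAA was found in 1 window, of TUBB2A, and in 11.5% of all. GC content was 77% in the TUBA1B window, 55.7% in that of TUBA1A and 67.7% in the TUBA1C window shown.

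Among 12 further tubulin genes, 1 of 9 tested rose in knockdown, and of 7 tested in overexpression 2 rose and 1 fell. These 11.1% and 42.9% called are near the 9.06% and 43.5% of all genes. TUBB4A, a beta isotype of brain, rose from 12.7 ± 1.35 to 39.4 ± 10.2 normalised counts (SD, n = 3) with GALNT7 KD, at a log2 fold change of 1.53 (limma adjusted p = 0.0192); being the only one called, it was named although its level was low. TUBG1, the gamma-tubulin that nucleates microtubules, rose from 2437 ± 79.3 to 4085 ± 92.9 with GALNT7 OE, and TUBE1, epsilon-tubulin of centrioles, from 148 ± 4.36 to 303 ± 27.1. TUBG2 fell from 603 ± 61.4 to 479 ± 17.1 (limma adjusted p = 0.0284). The further alpha and beta genes tested in overexpression were not called. TUBB4A read 616 ± 54.3 in OE control and 623 ± 48.4 in GALNT7 OE (SD, n = 3, limma adjusted p = 0.897). TUBA8 and TUBB8 had log2 fold changes of 0.07 and 0.04 there.

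The tubulin folding genes moved with the isotypes in overexpression. Of 19 tested, 15 rose and 1 fell, or 84.2% called against 43.5% of all genes, with a median log2 fold change of 0.49 against -0.01 over all genes, and 13 rose and 3 fell after rescaling to the 75th percentile. The chaperonin subunits CCT6A, CCT4 and CCT5 rose most, by 0.96, 0.88 and 0.87 on the log2 scale, and ARL2, a small GTPase that works with the tubulin cofactors, fell by 0.36 (limma adjusted p = 0.0026). In knockdown 6 rose and 2 fell of 19, or 42.1% called against 9.06% of all genes, with a median of 0.06. TBCEL (0.30), PFDN2 (0.28) and CCT4 (0.25) were the highest, and PFDN5 (-0.25) and CCT2 (-0.19), both on chromosome 12, were the lowest. With values centred on chromosome medians, 4 were called, all of them higher.

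The 5 autoregulation genes (TTC5, SCAPER, CNOT11, CNOT10 and CNOT1) showed 0 calls in knockdown by limma, edgeR or DESeq2, with 1 at an unadjusted p under 0.05. TTC5 read 780 ± 8.87 in shControl and 901 ± 26.8 in GALNT7 KD (SD, n = 3, limma adjusted p = 0.0957), SCAPER 214 ± 110 and 272 ± 40.5, CNOT11 1097 ± 59.5 and 1200 ± 142, CNOT10 1453 ± 131 and 1580 ± 227, and CNOT1 7288 ± 559 and 7562 ± 505. In overexpression CNOT1, the scaffold of the CCR4-NOT deadenylase, was the 1 gene called, from 10429 ± 81.5 to 13425 ± 1325 (limma adjusted p = 0.0051). That is 20% called, against 43.5% of all genes. TTC5, which recognises the nascent tubulin chain, read 817 ± 83.9 in OE control and 938 ± 83.6 in GALNT7 OE (limma adjusted p = 0.159). SCAPER, CNOT11 and CNOT10 had log2 fold changes of -0.01, 0.14 and 0.08.

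Of the enzymes that modify tubulin, at the tail or elsewhere, 0 of 16 tested were called in knockdown by limma or edgeR and 1 by DESeq2, with 3 at an unadjusted p under 0.05. In overexpression 5 rose and 3 fell of 17, and these 47.1% called are near the 43.5% of all genes. TTLL7, a beta-tubulin polyglutamylase, rose from 365 ± 235 to 1326 ± 427 normalised counts, AGBL5, a carboxypeptidase that removes glutamate branches, from 2553 ± 36.6 to 3946 ± 231, and TTLL11 from 121 ± 20.5 to 167 ± 4.45 (SD, n = 3). TTLL1, the tubulin detyrosinase VASH1 and the deacetylase SIRT2 fell, by 0.61, 0.41 and 0.39 on the log2 scale.

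Microtubule regulators went both ways. In knockdown 5 rose and 1 fell of 34, or 17.6% against 9.06% of all genes, with KATNAL1, a severing enzyme, at 1.48, MAP9 at 0.57 and TPPP at 0.57 on the log2 scale, and STMN3, of the stathmin family that binds free heterodimers, at -0.58. In overexpression 11 rose and 9 fell of 35, or 57.1% against 43.5% of all genes, led by the spindle factor TPX2 (1.70), MAP1A (1.58) and TACC3 (1.43), and by TPPP (-1.53), MAP7 (-0.80) and STMN3 (-0.71). Of the 11 genes of the gamma-tubulin ring complex, CDK5RAP2 alone was called in knockdown, at -0.41, or 9.09% against 9.06% of all genes. In overexpression 6 rose, among them MZT1 (1.35), NEDD1 (0.75) and TUBG1 (0.75), and TUBGCP6 (-0.91) and TUBGCP2 (-0.62) fell. These 72.7% called stand beside 43.5% of all genes.

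Proliferation markers moved with the isotypes in overexpression. MKI67, TOP2A, CCNB1, CDK1, PCNA and MCM2 all rose, 6 of 6 against 22.9% of all genes, with a median log2 fold change of 1.78. Their summed level was 14261 to 14811 normalised counts in OE control and 41451 to 48392 in GALNT7 OE. In knockdown 0 of 6 were called by limma, against 9.06% of all genes, 0 by edgeR and 1 by DESeq2, with 1 at an unadjusted p under 0.05. The summed level was 34745 to 41756 in shControl and 33269 to 36764 in GALNT7 KD. Their part in the isotype values was not tested. As bulk RNA was measured, more cells of a state and more RNA per cell cannot be told apart.

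Fibroblast and leukocyte marker lists were low in CWR22Rv1, with summed levels of 265 to 795 and 118 to 192 normalised counts over all libraries, although the fibroblast list was higher in GALNT7 KD (676 to 795) than in shControl (265 to 355), with LUM the gene called of 5. In DU145 the fibroblast list went from 291 to 423 in OE control to 61.9 to 157 in GALNT7 OE, and the leukocyte list, almost all CD68, from 2590 to 2765 down to 993 to 1124. The neural and neuroendocrine list, of which ENO2 and SYP were tested, was at 1544 to 1783 in OE control and 1020 to 1170 in GALNT7 OE. ENO2 made up nearly all of it and fell, from 1680 to 1071, while SYP, named after its values were seen, rose from 17.1 to 38.9 (limma adjusted p = 0.0168). Among the leukocyte markers, PTPRC did not pass the filter on low values in either line and CD3E was at 0 in every library. In knockdown 2 of the 4 epithelial genes fell, while in overexpression 1 epithelial gene rose and 1 fell. These 50% called in each comparison stand beside 9.06% and 43.5% of all genes. The part of these markers in the isotype values was not tested.

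The members with the highest mean absolute log2 fold change were TUBA4A, TUBB3 and TUBA1C, and for each the genes with the most similar profile were found among 11816 genes by Pearson r over the 12 libraries, on log2 values centred on each line's control mean. These libraries fall into 4 groups, so r mostly reflects group means. TUBA4A was most like SEPT6 (r = 0.988), BAIAP2L1 (0.985) and TMED3 (0.983). TUBB3 was most like TNFRSF10D (0.986), CDKN1A (0.983) and PRDX1 (0.978). TUBA1C was most like GAPDH (0.999), UNG (0.998) and PTGES3 (0.998), all 3 on chromosome 12, as were 14 of its 100 most similar genes, against 5.25% of all genes ranked. By the same measure TUBA1C had r = 0.989 with TUBA1B and -0.85 with TUBA1A.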

How the data were processed

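RNA-seq of 12 libraries (4 groups of 3) was analysed from the deposited normalised counts, 1 table per cell line with 59424 genes. Per the labels, libraries were TruSeq Stranded mRNA, and the submitters' processing notes name FastQC, Salmon, DESeq2, R 3.5.3 and hg38. The deposited signal, made by the authors, is estimated reads of a gene after division by the library's size factor. All values (100% within 0.001) were whole multiples of the value of 1 read, which gave whole reads and depth. No column belonged to another sample.

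Tables were fitted separately with limma 3.58.1 (R 4.3.3; lmFit, eBayes with trend) on log2(normalised count + 1), keeping genes whose mean over the 6 libraries was at least 5. Benjamini-Hochberg adjustment ran over all genes, with a threshold of 0.05. On simulated counts for 17906 (knockdown) and 18705 (overexpression) genes, 200 of 200 changed genes were called in each, with 15 and 9 false calls. Whether these rates hold for the spread of these replicates, or for a change as small as TUBA1C in knockdown, was not tested. For single members, a two-sided exact permutation test of 3 against 3 cannot give a p below 0.1. Alternatives were other pseudocounts, filters, scalings and tests (edgeR 4.0.16 and DESeq2 1.42.0 on recovered reads), chromosome centring, summed TUBB identifiers, a replicate block and leaving out each replicate.

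Annotation was GENCODE 29, which holds 94.4% of identifiers; levels were divided by the length of the union of exons, with both TUBB identifiers added together for shares and sums. Coding sequences stood in for protein sequences. Some coding ends and the prostate luminal marker list are not reported here. Members, lists and naming rules were chosen with earlier results of these data known. Named genes are the members, up to 3 higher and 3 lower called genes per list with a mean of at least 50, lists of 5 genes or fewer, and the 3 genes most like each of 3 members.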

Additional observations from a re-analysis of the deposited data

How the results depend on the processing

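Samples with the same replicate number were at most weakly alike. The correlation of same-numbered deviations was -0.011, 0.0747 and -0.0057 in CWR22Rv1 and 0.0432, 0.0428 and 0.0159 in DU145. In DU145 each OE control sample matched its own number best, so whether the numbers pair samples there is not settled. With the replicate block, 4 members were called in knockdown (TUBA1A lost, adjusted p = 0.0535 by limma) and 9 in overexpression, and all calls went from 1623 to 1002 and from 8132 to 7405.

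Overexpression gave 9 members under every alternative run. In knockdown, leaving out 1 replicate gave 3 to 6 members in place of 5, with the lowest count without shControl replicate 3. Over all genes, leaving out 1 replicate in knockdown gave 539 to 1336 calls, eBayes without trend 996 and DESeq2 2642, in place of 1623. Rescaling to the 75th percentile gave 3380 higher and 4736 lower in overexpression, in place of 4290 and 3842.

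Among knockdown values, TUBA1C turned to 0.028 with chromosome centring. Quantile normalisation turned TUBB2B to 0.13 and TUBB6 to -0.0013. Without shControl replicate 2, shControl replicate 3 and GALNT7 KD replicate 3, TUBB2B turned to 0.28, 0.13 and 0.13. Without shControl replicate 2 and GALNT7 KD replicate 3, TUBB6 turned to -0.012 and -0.071. Over the 6 fits that each leave out 1 replicate, TUBB2B ranged from -0.58 to 0.28 and TUBB6 from -0.071 to 0.093. None of these turned values passed the threshold. With the longest transcript as length, the knockdown change in share was -2.68 percentage points for TUBA1B, in place of -2.04, and 2.77 for TUBB, in place of 3.52. The cause was not tested.

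Low counts limit TUBB2B in both lines, and shared sequence limits TUBA1A, TUBA1B, TUBA1C, TUBB2A and TUBB2B. An overlapping transcript limits TUBB3, and unpaired copies and sequence shared with TUBBP1 limit TUBB.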
